A study of Mus musculus with 20 samples.

Results

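The genes of the ATF4 amino acid stress response were followed in mouse kidney cells sorted for Sca-1, a membrane marker used to enrich stem-like and progenitor cells, with or without roxadustat. The module was a given list of 37 genes, out of 47729 genes listed in the count files, set by known role. The rule holds no measured value, but the list was chosen with earlier results of these data known. It holds 5 transcription factors, 5 stress effectors and feedback genes, 4 genes of secreted factors and a receptor, 7 enzymes of serine and one-carbon metabolism, 7 other enzymes of amino acid metabolism and 9 amino acid transporters. All 37 were matched to 1 gene each by symbol and passed the filter on low counts.

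The 20 libraries form 6 groups: roxadustat and control cells at day 0 (n = 2 each), at day 7 (n = 4 each) and at day 21 (n = 4 each). Day 0 cells were freshly isolated by magnetic sorting for Sca-1 from kidneys of mice that had received roxadustat or not, the drug being given intraperitoneally at 33 mg/kg over 7 days. Day 7 and day 21 cells were kept in a mesenchymal stem cell medium with serum at 20% oxygen, with roxadustat in the medium of the treated groups, and were compared with cultures without it. The labels do not say whether the treated cultures began from injected animals, nor whether libraries of a group came from separate animals or cultures, so p-values measure only the spread between these libraries. Strain, sex and age are not given in the sources used here.

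ATF4 is a bZIP transcription factor whose mRNA is translated when the initiation factor eIF2 is phosphorylated by kinases that sense missing amino acids, misfolded protein in the endoplasmic reticulum, heme shortage or viral RNA, and its output also rises with mTORC1 activity. With C/EBP partners it binds composite C/EBP-ATF response elements and switches on the synthesis and uptake of amino acids, transfer RNA charging and a set of stress hormones. Because ATF4 is set largely by translation, its mRNA level is not a measure of its activity. Roxadustat is a prolyl hydroxylase inhibitor that keeps hypoxia-inducible factor (HIF) from being degraded, and several genes of the module, among them Ddit4 and Vldlr, are also known as hypoxia-responsive.

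Library depth ranged from 8502011 to 19903160 counts. Levels are CPM, counts scaled to a common library size, with TMM normalization, changes are log2 fold changes ± SE from edgeR's quasi-likelihood test in 1 model of all libraries, and a gene was called at a Benjamini-Hochberg adjusted p under 0.05 over the 18731 genes tested. The drug's reach was checked on 10 HIF targets, of which 7 were called higher in roxadustat cells at day 0 and all 10 at both culture times. Ly6a, the gene of the sorted protein Sca-1, had 668 to 715 CPM with roxadustat and 496 to 549.8 CPM without it at day 0, and was called higher with roxadustat at day 0 (1.32-fold), day 7 (3.07-fold) and day 21 (2.84-fold). Beside the label of mesenchymal stem cell-like cells, the day 0 libraries held abundant tubule transcripts: 8 proximal tubule markers summed to 20790 to 21850 CPM with roxadustat and 19970 to 21000 CPM in control libraries, while 7 interstitial fibroblast markers summed to 1380 to 2338 CPM with roxadustat and 216 to 334 CPM without it. At day 21 the proximal tubule markers summed to 296 to 306 CPM with roxadustat and 8.17 to 10.9 CPM in control cells, and the fibroblast markers to 2486 to 3731 CPM with roxadustat and 45260 to 48770 CPM without it. Marker levels therefore differed between the groups along with treatment and time, and in such bulk samples fewer cells of a type and less RNA per cell cannot be told apart. The 4 control libraries of day 21 lay in pairs (replicate 1 close to 2, replicate 3 close to 4), which still differed by more than sampling noise and were kept as 4. Chi-square per degree of freedom, a measure of how far the counts of a library pair differ, was 2.32 and 1.94 within these pairs. Across them it was 16.1 to 22. Control libraries of day 7 also lay close, at 2.5 to 5.86 for every pair, so closeness was not confined to day 21.

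To show where the response element lies, sequence before the RefSeq start is given for 5 members that the results return to. The transporter gene Slc7a11 and the enzyme genes Asns and Chac1 hold the element and were higher in roxadustat cells at day 21. Pycr1 holds it and was lower at that time, and Ddit4 holds no match to it in its window. The letters are from RefSeq (GRCm38.p6), written 5′ to 3′ on the strand of the gene, and capitals mark matches on either strand to TGATGNAA, the core of the C/EBP-ATF response element, or to ACGTG, the core of the HIF-binding element. The stretches are chr3:50443614-50443863, minus strand for Slc7a11, chr6:7693225-7693459, minus strand for Asns, chr2:119350992-119351241, plus strand for Chac1, chr11:120643749-120643998, minus strand for Pycr1 and chr10:59951805-59952020, minus strand for Ddit4.
Slc7a11: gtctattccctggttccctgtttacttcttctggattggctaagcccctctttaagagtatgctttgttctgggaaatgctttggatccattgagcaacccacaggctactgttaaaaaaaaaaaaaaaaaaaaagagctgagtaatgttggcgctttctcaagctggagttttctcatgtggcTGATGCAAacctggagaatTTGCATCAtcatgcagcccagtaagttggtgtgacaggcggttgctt
Asns: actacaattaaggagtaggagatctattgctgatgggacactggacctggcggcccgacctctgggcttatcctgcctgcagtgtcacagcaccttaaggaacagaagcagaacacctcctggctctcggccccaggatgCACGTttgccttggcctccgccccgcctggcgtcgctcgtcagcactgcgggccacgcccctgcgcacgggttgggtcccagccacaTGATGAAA
Chac1: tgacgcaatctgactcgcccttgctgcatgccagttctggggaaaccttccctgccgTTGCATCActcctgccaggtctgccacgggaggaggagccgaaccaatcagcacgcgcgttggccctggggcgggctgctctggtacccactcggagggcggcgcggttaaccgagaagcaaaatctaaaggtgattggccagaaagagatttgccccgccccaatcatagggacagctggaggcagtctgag
Pycr1: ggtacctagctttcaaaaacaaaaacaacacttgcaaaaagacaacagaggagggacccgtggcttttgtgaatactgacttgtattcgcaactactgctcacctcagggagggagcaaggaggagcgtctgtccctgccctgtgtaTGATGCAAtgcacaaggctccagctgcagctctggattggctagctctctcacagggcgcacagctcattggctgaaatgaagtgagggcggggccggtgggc
Ddit4: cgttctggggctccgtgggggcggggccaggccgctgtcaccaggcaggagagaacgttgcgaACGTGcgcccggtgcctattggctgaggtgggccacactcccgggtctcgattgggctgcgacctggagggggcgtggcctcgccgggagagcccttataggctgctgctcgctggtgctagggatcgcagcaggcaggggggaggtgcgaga

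Slc7a11 holds 2 matches to TGATGNAA, on opposite strands, whose first bases lie 66 and 47 bases before the start. In Asns the match begins 23 bases before the RefSeq start and an ACGTG match 110 bases before it. This TGATGNAA match of Asns lies in the last 30 bases of its stretch, which fall inside the gene as annotated in GENCODE M21. In Chac1 the match begins 193 bases and in Pycr1 103 bases before the start. Ddit4 holds ACGTG with its first base 187 bases before the start. Of the 37 members 31 had at least 1 window of 250 bases before to 50 bases after a RefSeq start, 38 windows in all. TGATGNAA was found in a window of 10 of these 31 members (32.3%), namely Nupr1, Trib3, Chac1, Fgf21, Vldlr, Asns, Pycr1, Pck2, Slc7a11 and Slc1a4. Counted by window it was in 26.3% of the member windows and in 3.97% of all 32851 windows. ACGTG was in 31.6% of the member windows, against 19.6% of all windows. A match is a run of letters and not a bound site.

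At day 7, 16 of the 37 members rose and 12 fell in roxadustat relative to control cells, and 9 were not called. Of all tested genes 47.7% were called at day 7, 24.1% higher and 23.6% lower. The median change was 0.0705 over the members and 0.0287 over all tested genes, and the members moved in both directions. All called stress effectors and secreted factors rose, and 5 of the 7 serine and one-carbon enzymes fell. At day 21, 28 members rose and 7 fell, with 2 not called, where 62.9% of all tested genes were called, 30% higher and 32.9% lower. The median change at day 21 was 0.622 over the members and 0 over all tested genes. At day 0, 2 members rose and 8 fell, where 6.83% of all tested genes were called, 2.73% higher and 4.11% lower, and the members' median of -0.176 stood beside -0.0102 over all tested genes. Scaled by library size alone, without TMM, the median of all tested genes at day 21 moved to 0.338 and that of the members to 0.97, and the split of all called genes changed from 5616 higher and 6165 lower to 9372 higher and 3549 lower, so the day 21 changes here are relative to the TMM scale. At day 0 the same scaling gave 3 members higher and 5 lower, and turned the split of all called genes from 511 higher and 769 lower to 699 higher and 524 lower. The plot of called shares sets these figures beside the time comparisons within each arm.

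**Figure D1:**
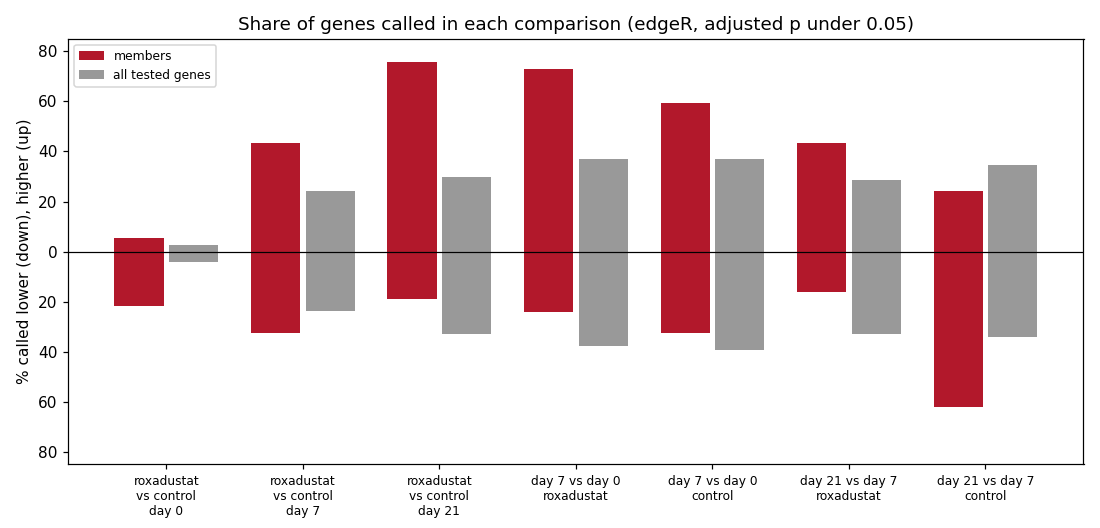
Share of the 37 members (red) and of the 18731 tested genes (grey) called higher (upward, %) or lower (downward, %) in the 3 comparisons of roxadustat with control and the 4 comparisons of times within an arm, by edgeR. At day 21 the upward bar of the members (28 of 37) stands above that of all genes (30%), while in control cells from day 7 to day 21 the downward bar (23 of 37) is the longer one.

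Summed over the members, the level was 3564 to 3655 CPM in roxadustat libraries at day 21, against 2383 to 2520 CPM in controls. The day 7 sums were 3309 to 3421 CPM with roxadustat and 2847 to 2905 CPM without it, and at day 0 they were 2137 to 2179 CPM with roxadustat and 2273 to 2448 CPM without it. The groups did not overlap at any of the 3 times, though those of day 0 hold only 2 libraries each. Atf4, Slc38a2 and Gdf15 weigh heavily in such a sum, since they are among the most abundant members.

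**Figure D2:**
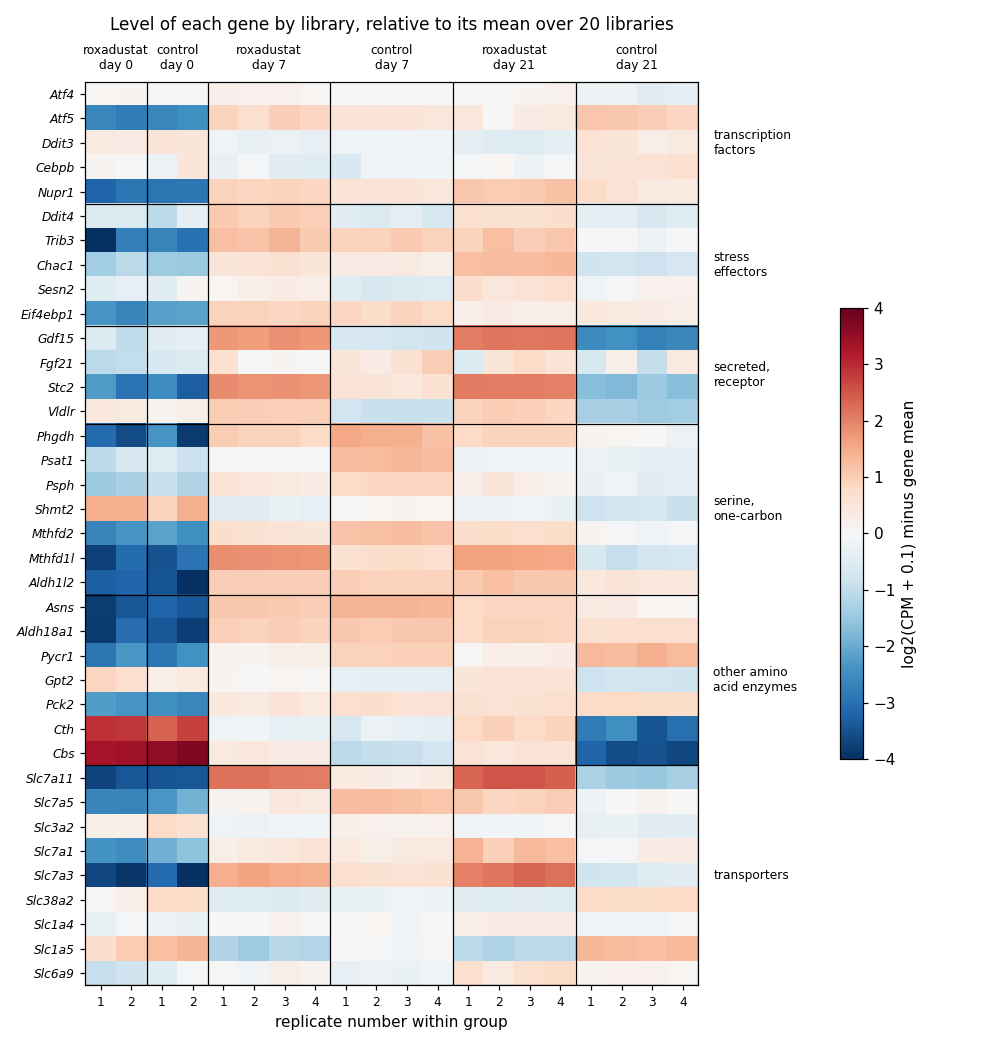
Level of each of the 37 members (rows, by role) in each of the 20 libraries (columns, by group and replicate number), as log2(CPM + 0.1) minus the gene's mean over all libraries, red for above and blue for below. Many enzymes and transporters are blue at day 0 and red in culture, Cth, Cbs and Shmt2 run the other way, and the control columns of day 21 are paler or bluer than the roxadustat columns beside them for most genes.

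Atf4 itself (chr15:80255184-80257541 on the plus strand, GRCm38) changed little. At day 21 it had 285, 297, 315 and 324 CPM in roxadustat cells, against 250.1, 250.3, 210.2 and 223 CPM in control cells. The groups did not overlap, and the control libraries fell into their close pairs. The change was 0.39 ± 0.055 (adjusted p = 6.62e-07), or 1.31-fold. At day 7 Atf4 had 336, 328, 325 and 305 CPM with roxadustat and 288, 299, 295 and 294 CPM in control cells, a change of 0.14 ± 0.055 (adjusted p = 0.0388) that was no longer called with DESeq2's size factors (0.098, adjusted p = 0.143) or without any 1 of the 8 libraries other than roxadustat replicate 4 (adjusted p of 0.0554 to 0.122). At day 0 it averaged 311 ± 6.66 CPM with roxadustat and 296 ± 3.07 CPM in control cells (SD, n = 2 each; adjusted p = 0.708). Per kilobase of exon Atf4 stood at 130 CPM with roxadustat and 99 CPM in control cultures at day 21. On that scale only Gdf15 stood above it in roxadustat cells at day 21, with 227 CPM per kilobase, and none of the 37 stood above it in control cells.

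Ddit3, which encodes the C/EBP-family factor CHOP that acts below ATF4, went the other way at day 21. It had 40.1, 36.5, 36.4 and 39.7 CPM in roxadustat cells, against 78.2, 73.4, 63.3 and 68 CPM in control cells, a fall of 1.85-fold (-0.89 ± 0.062, adjusted p = 4.85e-13). No roxadustat library reached the lowest control library. At day 7 the levels overlapped, with 47, 42.9, 44.6 and 42 CPM with roxadustat and 47, 47, 47.5 and 48.4 CPM in control cells (-0.11 ± 0.06, adjusted p = 0.16); with DESeq2's size factors the same direction was called (-0.146, adjusted p = 0.0428). At day 0 Ddit3 had 68.5 and 65.2 CPM with roxadustat and 74.6 and 74.2 CPM in control cells (adjusted p = 0.343). About 10.9% of its annotated exon bases are shared with another entry named Ddit3 on the same strand, with Mars and with Gm4189. These libraries are non-stranded, so a small part of its reads cannot be assigned for certain.

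The other 3 factors split. Nupr1, a small chromatin-associated stress protein, rose at day 21 to 188 ± 8.98 CPM in roxadustat cells, against 127 ± 16 CPM in control cells (SD, n = 4 each; 0.56 ± 0.064, adjusted p = 1.55e-08), and at day 7 by 0.37 ± 0.064. Atf5, a bZIP factor known for the mitochondrial stress response, was higher at day 7 (86.1 ± 8.23 CPM with roxadustat and 67.6 ± 1.56 CPM in control cells, 0.35 ± 0.076) and lower at day 21 (59.2 ± 7.48 CPM with roxadustat and 96.5 ± 6.84 CPM in control cells, -0.71 ± 0.078), both called. The difference between the 2 effects was -1.06 ± 0.109 (adjusted p = 5.68e-09), and 4.11% of its exon bases are shared with Nup62 and Il4i1. Cebpb, a partner of ATF4, was lower at day 21 with 49.2 ± 3.73 CPM with roxadustat and 75.8 ± 3.9 CPM in control cells (-0.62 ± 0.137, adjusted p = 0.000737), a call lost when libraries were scaled by size alone (-0.269, adjusted p = 0.0861). Of the annotated exon bases of Cebpb 20.7% are shared with Tmem189.

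Among the stress effectors, Ddit4 showed the largest change at day 7. This gene encodes REDD1, an inhibitor of mTORC1 that is also hypoxia-responsive. Ddit4 had 129, 116, 128 and 121 CPM in roxadustat cells at day 7, against 45.6, 41.3, 47 and 39.5 CPM in control cells. The groups stood far apart, with every roxadustat library above every control library, and the change was 1.51 ± 0.09 (adjusted p = 1.7e-12). The day 21 levels were 97.5, 95.4, 95.4 and 101 CPM with roxadustat and 47.5, 47.4, 39.5 and 44.5 CPM in control cells, again without overlap (1.12 ± 0.092, adjusted p = 1.57e-10). The day 21 effect was smaller than that of day 7, with a difference of -0.39 ± 0.128 (adjusted p = 0.0163), and at day 0 the change was 0.096 ± 0.135 (adjusted p = 0.786).

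Chac1, which encodes a glutathione-degrading enzyme and is known as a sensitive readout of ATF4, changed mainly at day 21. At that time it had 32, 32.5, 32.9 and 35 CPM in roxadustat cells, against 7.92, 8.16, 7.75 and 8.64 CPM in control cells, a rise of 4.08-fold (2.03 ± 0.075, adjusted p = 3.01e-19). The groups stood far apart, with little spread within either. At day 7 the levels were close but did not overlap, 19.2, 20.1, 21.3 and 19.3 CPM with roxadustat and 17.5, 17.2, 17.7 and 16.3 CPM in control cells (0.22 ± 0.068, adjusted p = 0.00955), a call lost without the filter on low counts (adjusted p = 0.0812). The effect grew by 1.81 ± 0.102 between these times (adjusted p = 1.52e-14).

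Trib3, a pseudokinase that feeds back on ATF4 and AKT, rose at day 21 by 1.13 ± 0.1, with 27.5 ± 2.53 CPM with roxadustat and 12.6 ± 0.708 CPM in control cells. Its smaller rise at day 7 (0.23 ± 0.09, adjusted p = 0.0329) was lost with DESeq2's size factors (0.194, adjusted p = 0.0761) and without any 1 of 5 single libraries, namely control replicates 1, 2 and 4 and roxadustat replicates 1 and 3 (adjusted p of 0.0643 to 0.145). Sesn2, which encodes the leucine sensor Sestrin2, rose at day 7 (78.8 ± 5.43 CPM with roxadustat and 46.7 ± 2.24 CPM in control cells, 0.76 ± 0.103) and at day 21 (103 ± 8.19 CPM with roxadustat and 69.2 ± 8.2 CPM in control cells, 0.58 ± 0.102). Eif4ebp1, which encodes a repressor of cap-dependent translation, was not called at any time, with 65.9 ± 2.1 CPM with roxadustat and 69.2 ± 3.75 CPM in control cultures at day 21 (-0.070 ± 0.056); scaled by library size alone its sign turned and it was called higher (0.279).

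Gdf15 (chr8:70629393-70632456, minus strand) had the largest roxadustat change of the module at both culture times. It encodes a secreted stress hormone of the TGF-beta superfamily that acts on the brainstem. At day 21 Gdf15 had 399, 431, 419.9 and 429 CPM in roxadustat cells, against 16.5, 17.8, 14.6 and 16.2 CPM in control cells. The ratio was 25.7-fold (4.68 ± 0.083, adjusted p = 2.47e-26). At day 7 it had 324, 306, 342 and 324 CPM in roxadustat cells, against 64, 60.6, 58.2 and 55.6 CPM in control cells (2.44 ± 0.072, adjusted p = 1.4e-20). No libraries overlapped at either time. At day 0 the order was turned round, with 66.4 and 47.9 CPM with roxadustat and 70.4 and 75 CPM in control cells (-0.34 ± 0.102, adjusted p = 0.0399), and this small fall was lost without roxadustat replicate 2 (-0.133, adjusted p = 0.61) or control replicate 2 (-0.304, adjusted p = 0.175). The roxadustat effect was larger at day 7 than at day 0 by 2.79 ± 0.125 (adjusted p = 1.17e-15) and larger at day 21 than at day 7 by 2.24 ± 0.105 (adjusted p = 2.52e-16). Within the arms, from day 7 to day 21 Gdf15 rose by 0.37 ± 0.066 in roxadustat cells and changed by -1.87 ± 0.081 in control cells.

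Stc2, which encodes the secreted glycoprotein stanniocalcin 2, followed a like course. Stc2 at day 21 had 48.1, 47.2, 46.4 and 45.7 CPM in roxadustat cells, against 3.38, 3.24, 4.07 and 3.37 CPM in control cells (13.4-fold, 3.74 ± 0.098, adjusted p = 1.08e-22). At day 7 it had 41.9, 39.3, 40.3 and 38.8 CPM with roxadustat and 16.7, 16, 15.2 and 17.2 CPM in control cells (1.30 ± 0.077, adjusted p = 5.75e-14). The groups were apart at both times, and the effect grew by 2.44 ± 0.128 between them. In fresh cells it was low in every library, with 2.25 and 1.37 CPM with roxadustat and 1.95 and 1.05 CPM in control cells.

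Vldlr encodes a lipoprotein receptor that takes up triglyceride-rich particles and is known as a target of both ATF4 and HIF. It had 298, 290.1, 287 and 282 CPM in roxadustat cells at day 7, against 85.5, 79.9, 79.9 and 79.9 CPM in control cells (1.83 ± 0.048, adjusted p = 1.08e-21). Later, at day 21, it had 281, 299, 283 and 268 CPM in roxadustat cells, against 58.4, 59.6, 54.9 and 56.5 CPM in control cells (2.30 ± 0.05, adjusted p = 1.52e-24). The arms parted in opposite directions in the first week: relative to day 0, Vldlr rose by 0.59 ± 0.058 in roxadustat cells and changed by -1.04 ± 0.056 in control cells. Fgf21, a metabolic hormone, had 22 counts over the 4 roxadustat libraries and 13 over the 4 control libraries at day 21, no library above 0.591 CPM at any time and no call between the arms, so a difference was not detectable at this depth.

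**Figure D3:**
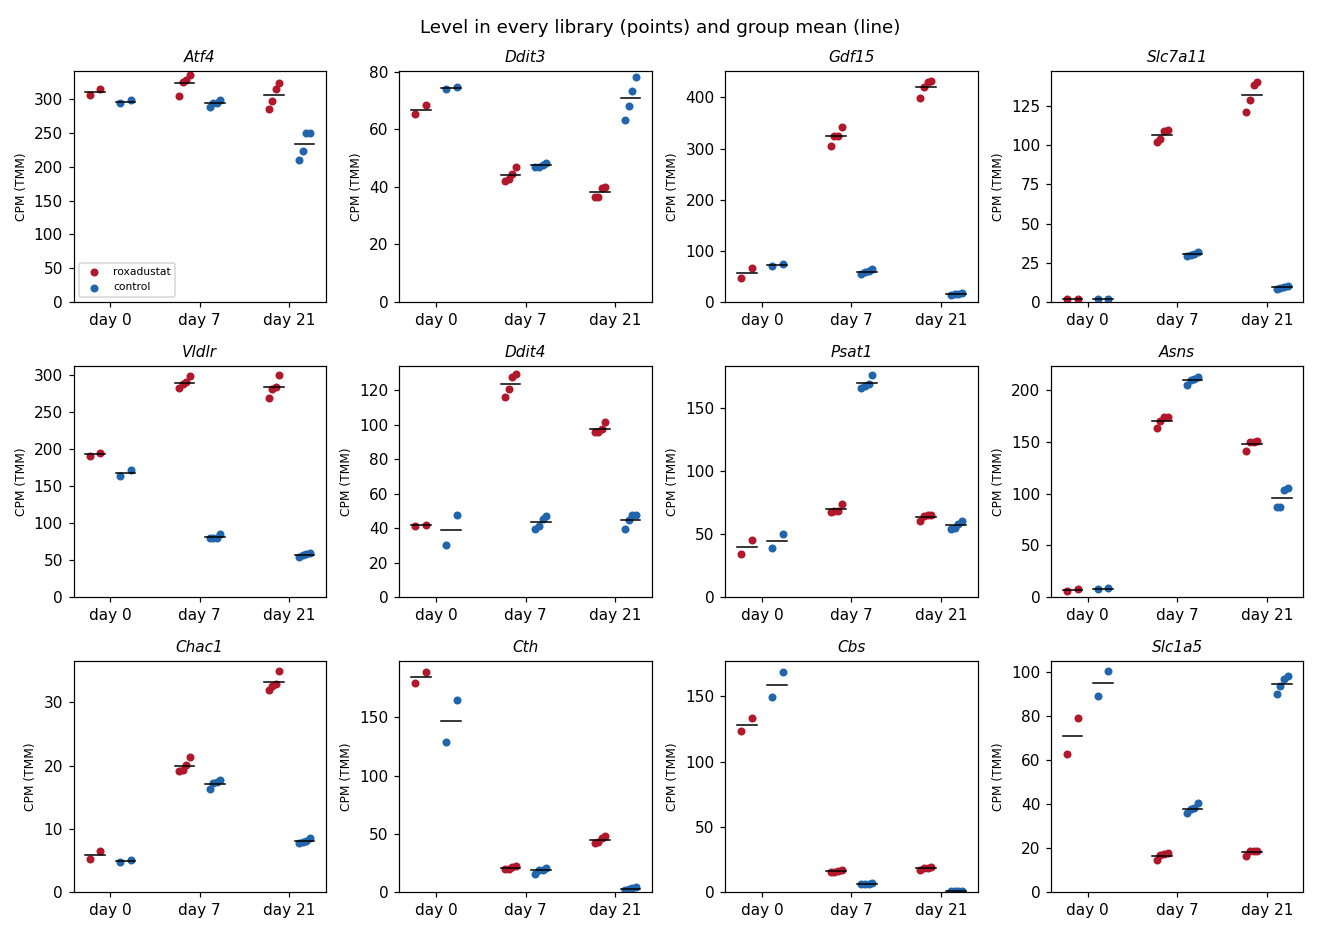
Level (CPM, TMM-scaled, linear axis from 0) of 12 members in every library at day 0, day 7 and day 21, roxadustat in red left of control in blue, with a line at each group mean. Gdf15, Slc7a11, Vldlr, Chac1, Cth and Cbs are apart at day 21, Psat1 is apart at day 7 with control on top, and Slc1a5 is apart at both culture times with control on top.

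For most serine and one-carbon enzymes the difference between the arms turned round between the culture times. At day 7 control cells had more of most of them, and at day 21 roxadustat cells had more of all 7. From day 7 to day 21 all 7 fell in control cells, while most were not called in roxadustat cells. The largest fall at day 7 was that of Psat1, which encodes the aminotransferase of the middle step of serine synthesis. Psat1 had 73.8, 68.9, 68.9 and 67.7 CPM in roxadustat cells at day 7, against 166, 169, 177 and 168 CPM in control cells, a 2.44-fold lower level (-1.28 ± 0.068, adjusted p = 6.46e-15). At day 21 it had 60.8, 65.1, 64.4 and 65.3 CPM in roxadustat cells, against 60.4, 58.3, 55.3 and 54.5 CPM in control cells. The groups did not overlap, but the roxadustat level was only slightly higher (0.16 ± 0.071, adjusted p = 0.05, just under the threshold), and the call was lost with the replicate block (adjusted p = 0.0616), without the filter on low counts (adjusted p = 0.144), with the paired control libraries summed (adjusted p = 0.149) and without any 1 of 6 single libraries (adjusted p of 0.0643 to 0.123), all but control replicate 1 and roxadustat replicate 1.

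The first and last steps of the same pathway were called in opposite directions at the 2 times. Phgdh, the dehydrogenase that commits 3-phosphoglycerate to serine, averaged 43.1 ± 2.46 CPM with roxadustat and 60.6 ± 6.38 CPM in control cultures at day 7 (-0.49 ± 0.108, adjusted p = 0.000697), and 42.1 ± 1.54 CPM with roxadustat and 22.8 ± 2.43 CPM in control cultures at day 21 (0.88 ± 0.118, adjusted p = 1.04e-06). Psph, the phosphatase of the final step, changed by -0.39 ± 0.074 at day 7 and by 0.59 ± 0.079 at day 21, both called; 10.4% of its exon bases are shared with Cct6a. The roxadustat effect on Phgdh was larger at day 21 than at day 7 by 1.37 ± 0.16, that on Psat1 by 1.45 ± 0.098 and that on Psph by 0.98 ± 0.108 (adjusted p = 2.92e-07, 9.52e-13 and 1.8e-08).

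Of the mitochondrial folate enzymes, Shmt2, which turns serine into glycine and a one-carbon unit, had 58.6, 59.3, 66 and 62.9 CPM in roxadustat cells at day 7, against 79.4, 83.5, 85.5 and 83.1 CPM in control cells (-0.43 ± 0.075, adjusted p = 3.42e-05), and at day 21 it was higher in roxadustat cells by 0.57 ± 0.079. About 1.03% of its exon bases are shared with the HIF target Ndufa4l2, which was higher at day 7 by 6.45 ± 0.098. Mthfd2, the next enzyme in line, had 73.6, 68.4, 65.2 and 62.8 CPM in roxadustat cells at day 7, against 101, 103, 107 and 99.6 CPM in control cells (-0.60 ± 0.063), and was higher at day 21 by 0.75 ± 0.066. Neither overlapped between the arms at either time. Mthfd1l, which releases formate from the mitochondrion, was the exception of the group, being higher in roxadustat cells at both times. It had 104, 101, 99.6 and 97.3 CPM with roxadustat and 43.7, 47.1, 47.4 and 45.8 CPM in control cultures at day 7 (1.13 ± 0.066, adjusted p = 4.42e-14), and 88.1, 88.2, 86.2 and 84.2 CPM with roxadustat and 18.6, 15.3, 16.8 and 17.4 CPM in control cultures at day 21 (2.35 ± 0.073, adjusted p = 6.5e-21). Aldh1l2, a mitochondrial formyltetrahydrofolate dehydrogenase with 14.1% of its exon bases shared with D10Wsu102e, did not pass the test at day 7 (0.040 ± 0.054) and was higher at day 21 by 0.66 ± 0.055. Proliferation markers moved with the day 7 pattern, all 6 being lower in roxadustat cells (summed 123 to 133 CPM, against 448 to 463 CPM in control cells); at day 21 their sums were 86 to 93.5 CPM with roxadustat and 126 to 133 CPM in control cells, and their part in these results was not tested.

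Among the 7 other enzymes, Cbs and Cth had the largest differences at day 21. They encode the pair of enzymes that convert homocysteine to cysteine, the transsulfuration route. At day 21 Cth had 43.4, 48.6, 42.2 and 46.5 CPM in roxadustat cells, against 3.44, 4.44, 2.16 and 2.95 CPM in control cells (13.6-fold, 3.77 ± 0.134, adjusted p = 1.5e-17). Cbs at that time had 19.1, 17.4, 18.8 and 18.5 CPM in roxadustat cells, against 1.29, 0.961, 1.04 and 0.913 CPM in control cells (17.3-fold, 4.12 ± 0.113, adjusted p = 4.01e-22). All control libraries lay below all roxadustat libraries for both genes. At day 7 Cbs had 16.5, 17.2, 15.5 and 16 CPM with roxadustat and 6.08, 6.52, 6.55 and 7.46 CPM in control cells (1.29 ± 0.077, adjusted p = 8.51e-14), whereas Cth overlapped, with 21.8, 22.9, 19.7 and 20.2 CPM with roxadustat and 15.5, 21.1, 19.5 and 19.1 CPM in control cells (0.17 ± 0.105, adjusted p = 0.205). Both were much more abundant in fresh cells: at day 0 Cth had 189 and 179.7 CPM with roxadustat and 129 and 165 CPM in control cells, and Cbs had 124 and 133 CPM with roxadustat and 149 and 169 CPM in control cells.

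Both enzymes are also known from the proximal tubule, and markers of that segment differed between the arms in culture as well. At day 7 Cbs was called higher in roxadustat cells, while Cth leaned the same way and was not called. At both culture times 5 of the 8 markers were higher in roxadustat cells, and their sum at day 7 was 248.5 to 256.3 CPM with roxadustat and 83.7 to 90.0 CPM in control cells. In control cells at day 21 the defining factor Hnf4a had 0 counts over the 4 libraries, against 485 counts in roxadustat cells, and Slc22a6 had 0 counts in both arms. All 7 general epithelial markers were higher in roxadustat cells at both culture times, with sums at day 21 of 387 to 393 CPM with roxadustat and 14 to 16.6 CPM in control cells. All 6 macrophage markers were lower in roxadustat cells at both culture times, summing at day 21 to 15.3 to 17.1 CPM with roxadustat and 246 to 291 CPM in control cells. Pericyte and smooth muscle markers were lower in 4 of 5 cases at day 7 and in 5 of 5 at day 21. The part of these marker differences in those of Cth, Cbs and the other members was not tested.

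Asns, which encodes asparagine synthetase, shared the turn of the serine enzymes. It had 174, 174, 170.3 and 163 CPM in roxadustat cells at day 7, against 213, 211, 209.8 and 205 CPM in control cells (-0.30 ± 0.06, adjusted p = 0.000139). At day 21 it had 141, 151, 150 and 150.1 CPM in roxadustat cells, against 106, 104, 87.5 and 87.4 CPM in control cells (0.62 ± 0.061, adjusted p = 7.99e-10). Neither time showed overlap, with control on top at day 7 and roxadustat on top at day 21. Aldh18a1, which makes the proline precursor, did not pass the main test at day 7 (-0.13 ± 0.067) and was higher at day 21 by 0.23 ± 0.068 (adjusted p = 0.0054). At day 7 it was called lower with DESeq2's size factors (-0.174, adjusted p = 0.0351) and by limma voom (-0.134, adjusted p = 0.0385). The same held for the DESeq2 test (adjusted p = 0.000372) and for edgeR with only the groups compared (-0.145, adjusted p = 0.000854).

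Pycr1, the mitochondrial enzyme that completes proline synthesis, was lower in roxadustat cells at both culture times. It had 5.17, 6.05, 5.87 and 6.2 CPM in roxadustat cells at day 21, against 12.5, 12, 13.9 and 12.2 CPM in control cells (-1.11 ± 0.099, adjusted p = 1.08e-10), and at day 7 it changed by -0.77 ± 0.097. All 7 fibroblast markers given above, collagen genes among them, were also lower in roxadustat cells at day 21. Their part in the Pycr1 difference was not tested. Gpt2, the mitochondrial alanine aminotransferase, was higher in roxadustat cells at all 3 times, by 0.45 ± 0.072, 0.42 ± 0.052 and 1.30 ± 0.054 at day 0, day 7 and day 21. At day 21 Gpt2 had 90.2, 94.1, 91.9 and 93.4 CPM in roxadustat cells, against 36, 38.4, 38.8 and 36.7 CPM in control cells. Pck2, the mitochondrial form of phosphoenolpyruvate carboxykinase, was slightly lower at day 7 (-0.19 ± 0.051) and at day 21 (-0.15 ± 0.051, adjusted p = 0.0146), but scaled by library size alone it was called higher at day 21 (0.203), so its direction depends on the scaling.

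Slc7a11 (chr3:49892526-50443614, minus strand) led the transporters. It encodes xCT, the subunit that imports cystine in exchange for glutamate and so feeds glutathione synthesis, and its promoter stretch is the one above with 2 matches to the response element. Slc7a11 had 109, 110, 104 and 102 CPM in roxadustat cells at day 7, against 32, 29.9, 29.2 and 31 CPM in control cells (3.48-fold, 1.80 ± 0.059, adjusted p = 1.81e-19). At day 21 it had 122, 141, 138 and 129 CPM in roxadustat cells, against 10.1, 8.88, 8.54 and 9.62 CPM in control cells (14.2-fold, 3.83 ± 0.069, adjusted p = 3.48e-26). The groups were far apart at both times, whereas at day 0 they overlapped, with 1.79 and 2.21 CPM with roxadustat and 2.14 and 2.17 CPM in control cells. The effect grew from day 0 to day 7 by 1.92 ± 0.216 and from day 7 to day 21 by 2.03 ± 0.09 (adjusted p = 7.72e-08 and 9.29e-17). Its partner chain Slc3a2, which anchors both xCT and the leucine transporter in the membrane, moved little: it changed by -0.34 ± 0.052 at day 7 and by 0.25 ± 0.053 at day 21, both called.

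Slc7a5, the leucine and large neutral amino acid transporter LAT1, turned with the serine enzymes. It had 44, 44.8, 55.9 and 51.9 CPM in roxadustat cells at day 7, against 96, 96.3, 91.3 and 87.2 CPM in control cells (-0.92 ± 0.08, adjusted p = 2.68e-10). By day 21 it had 85.7, 72.8, 76.4 and 80.6 CPM in roxadustat cells, against 35.2, 40.6, 45 and 41.5 CPM in control cells (0.96 ± 0.083, adjusted p = 7.49e-11). The arms did not overlap at either time, and the difference between the effects was 1.88 ± 0.115 (adjusted p = 1.91e-13).

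The cationic amino acid transporters Slc7a1 and Slc7a3, which carry arginine and lysine, were both higher in roxadustat cells at day 21. Slc7a3 had 14.7, 16.4, 18.3 and 16.9 CPM in roxadustat cells, against 2.03, 2.1, 2.48 and 2.6 CPM in control cells (7.21-fold, 2.85 ± 0.116, adjusted p = 2.77e-18). Slc7a1 had 204, 152, 194 and 181 CPM in roxadustat cells, against 75.6, 76.4, 96.5 and 97.3 CPM in control cells (1.08 ± 0.097, adjusted p = 2.99e-09). At day 7 Slc7a3 was already higher (0.91 ± 0.1), while Slc7a1 overlapped and did not pass the test (0.068 ± 0.096, adjusted p = 0.599).

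Of the 9 transporters, 2 that carry glutamine and small neutral amino acids were lower at day 21, while the other 7 were higher. Slc1a5, which encodes the glutamine exchanger ASCT2, had 18.9, 16.7, 18.7 and 18.7 CPM in roxadustat cells at day 21, against 98.5, 93.8, 90.2 and 96.8 CPM in control cells, a 5.21-fold lower level (-2.38 ± 0.076, adjusted p = 1.09e-20). At day 7 it had 17, 14.6, 18.1 and 17.3 CPM in roxadustat cells, against 38.2, 37.7, 36.1 and 40.5 CPM in control cells (-1.19 ± 0.076, adjusted p = 2.89e-13). Slc38a2, the sodium-coupled transporter SNAT2, had 207, 202, 206 and 204 CPM in roxadustat cells at day 21, against 498, 472, 473 and 493 CPM in control cells (-1.24 ± 0.047, adjusted p = 6.94e-19). Neither gene overlapped between the arms at any of the 3 times, the day 0 arms holding only 2 libraries each. Both were lower in roxadustat cells each time, as were 4 of the 9 transporters in all at day 7 and 6 at day 0. The close relative of ASCT2, Slc1a4, a serine and alanine exchanger, was higher at day 21 by 0.42 ± 0.058 and overlapped between the arms at day 7. Slc6a9, the glycine transporter GLYT1, was higher at day 7 (0.32 ± 0.099) and at day 21 (0.47 ± 0.097), with the limit that 30.2% of its exon bases are shared with Ccdc24, B4galt2 and another gene.

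**Figure D4:**
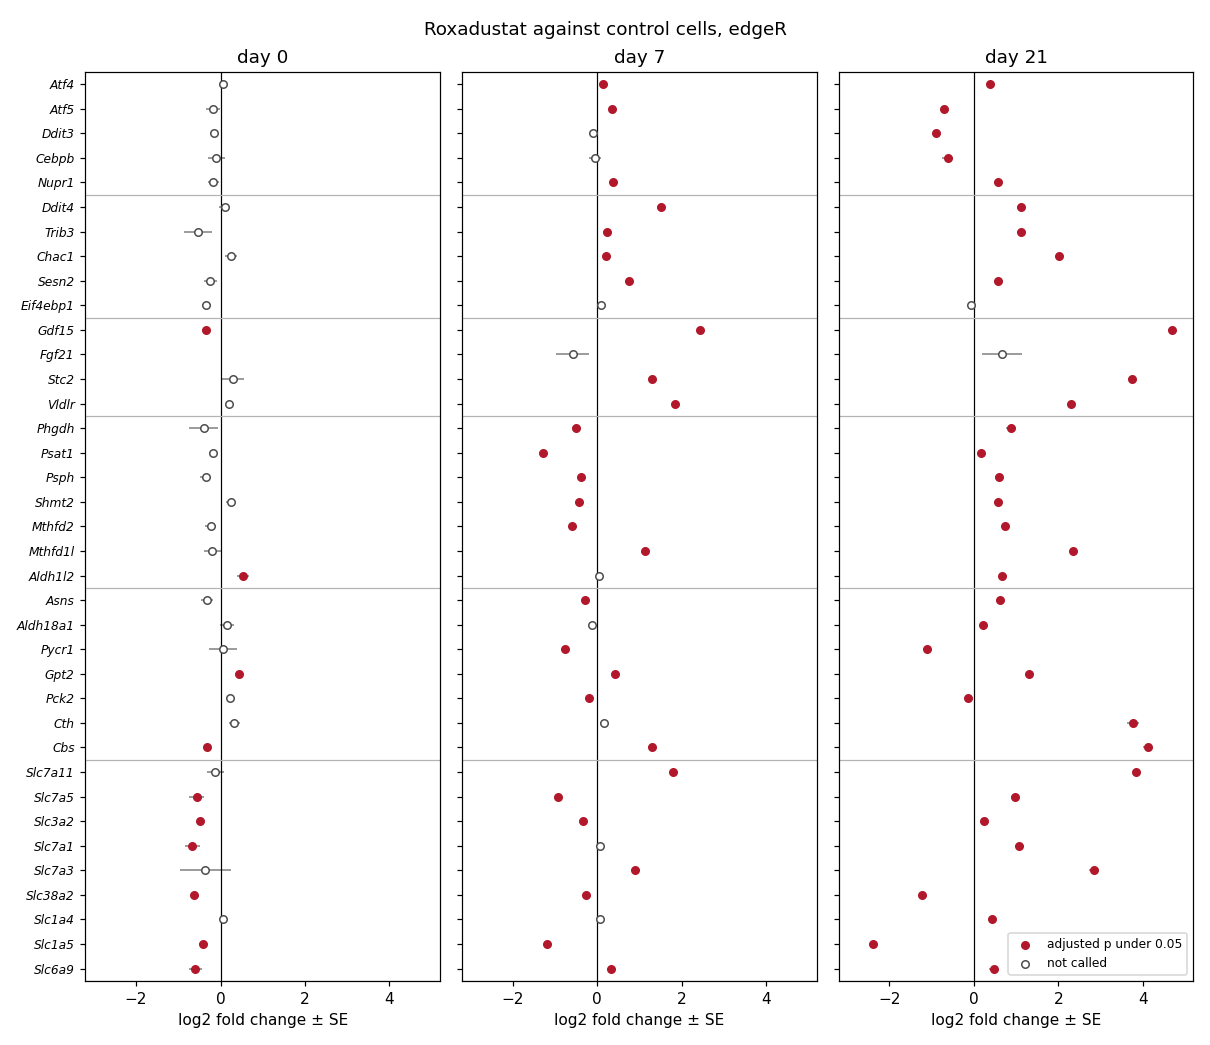
Log2 fold change of roxadustat against control cells for each member (rows, by role) at day 0, day 7 and day 21, with bars of ± 1 SE and filled points where the adjusted p was under 0.05; Fgf21 at day 0, with 6 counts in all, is left out. Points lie near 0 at day 0, spread to both sides at day 7 and lie mostly to the right at day 21, with Slc1a5 and Slc38a2 farthest to the left there.

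Fresh cells differed little, and the calls there were fragile. Vldlr was not called in the main test, with means of 192.6 CPM with roxadustat and 167.2 CPM in control cells. It was called higher by DESeq2 (0.2, adjusted p = 0.0111) and limma voom (0.204, adjusted p = 0.0427), but not with only the day 0 libraries fitted. Of the 9 transporters 6 were lower in roxadustat cells, with a median change of -0.476 over the 9 and -0.0102 over all tested genes. Slc38a2 had 292 and 328 CPM in roxadustat cells, against 489 and 473 CPM in control cells (-0.63 ± 0.066, adjusted p = 3.08e-07). Slc3a2 had 151 and 148 CPM in roxadustat cells, against 221 and 195 CPM in control cells (-0.48 ± 0.073, adjusted p = 9.26e-05). With only the 4 day 0 libraries fitted in edgeR, the adjusted p was 0.12 for Slc38a2 and 0.176 for Slc3a2. These genes and Gpt2 kept their calls without any 1 of the 4 day 0 libraries.

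The remaining day 0 calls changed when single libraries were left out. Slc7a1 had 15 and 14 CPM with roxadustat and 20.7 and 25.3 CPM in control cells (-0.66 ± 0.173, adjusted p = 0.0223), Slc7a5 had 6.49 and 6.31 CPM with roxadustat and 8.05 and 10.9 CPM in control cells (-0.57 ± 0.174, adjusted p = 0.0478), and Slc6a9 had 6.36 and 6.92 CPM with roxadustat and 8.57 and 11.5 CPM in control cells (-0.60 ± 0.16, adjusted p = 0.0206). The arms did not overlap for any of the 3. Each nevertheless lost its call without control replicate 2, without roxadustat replicate 1 and without roxadustat replicate 2, with changes of -0.727 to -0.336. With 2 libraries per arm such separation says little. At day 0, 22 of the 37 members did not overlap, while 2 were called higher and 8 lower. Slc1a5 (-0.42 ± 0.096) lost its call without control replicate 2 (adjusted p = 0.0704) or roxadustat replicate 1 (adjusted p = 0.213). Cbs was lower (-0.31 ± 0.08, adjusted p = 0.017) and lost its call without either of the same libraries (adjusted p = 0.179 for both). Aldh1l2, with 5.1 and 5.48 CPM with roxadustat and 4.41 and 2.9 CPM in control cells (0.53 ± 0.148, adjusted p = 0.0486), lost its call without control replicate 2 (adjusted p = 0.615), roxadustat replicate 1 (adjusted p = 0.155) or roxadustat replicate 2 (adjusted p = 0.233). Fitted on the 4 day 0 libraries alone, edgeR called 0 members higher and 0 lower, with 3 and 7 at an unadjusted p under 0.05, while DESeq2 on all libraries called 2 higher and 8 lower and limma voom 3 higher and 5 lower. Immediate early genes, which tissue dissociation is known to induce, were lower alongside in 4 of 12 cases (summed 7007 to 7051 CPM with roxadustat and 7582 to 8333 CPM in control cells), 5 of 7 fibroblast and 5 of 6 macrophage markers were higher, and all 6 endothelial and 5 of 7 general epithelial markers were lower. Their part in the day 0 differences was not tested.

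Within each arm the 3 times were also compared. From day 0 to day 7 most members rose in both arms: 27 rose and 9 fell in roxadustat cells, where 74.6% of all tested genes were called (37.1% higher and 37.6% lower), and 22 rose and 12 fell in control cells, where 76.5% were called, 37% higher and 39.5% lower. Scaled by library size alone, 25 members were higher and 8 lower in control cells, beside 9073 and 5645 of all tested genes. The median change was 1.93 over the members in roxadustat cells, against 0.0295 over all tested genes, and 1.86 in control cells, against -0.0258. Slc7a3 rose by 5.82 ± 0.259, Slc7a11 by 5.74 ± 0.118, Mthfd1l by 5.24 ± 0.129 and Asns by 4.68 ± 0.109 in roxadustat cells. In control cells Aldh1l2 rose by 4.70 ± 0.103, Asns by 4.66 ± 0.105 and Aldh18a1 by 4.65 ± 0.121, while Cbs changed by -4.57 ± 0.079. Marker levels differed between fresh and cultured libraries as well, and with culture and time bound together their effects cannot be told apart.

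From day 7 to day 21 the arms parted. In roxadustat cells 16 members rose and 6 fell, with 15 not called, where 61.5% of all tested genes were called, 28.6% higher and 32.9% lower, and the median change was 0.131 over the members and -0.0348 over all tested genes. In control cells 9 rose and 23 fell, where 68.7% of all tested genes were called, 34.5% higher and 34.3% lower, with medians of -0.502 over the members and 0 over all tested genes. The balance over all genes depends on the scaling: by library size alone, 6052 of all tested genes were higher and 4991 lower in roxadustat cells, beside 21 and 3 members, and 5063 were higher and 8172 lower in control cells, beside 6 and 27 members. All 7 serine and one-carbon enzymes fell in control cells, whereas in roxadustat cells 1 of the 7 rose, 1 fell and 5 were not called. The members with the largest falls in control cells were Cbs (-2.65 ± 0.131), Cth (-2.51 ± 0.142), Stc2 (-2.22 ± 0.105) and Gdf15 (-1.87 ± 0.081). The largest rises in roxadustat cells were those of Cth (1.10 ± 0.1), Slc7a1 (0.81 ± 0.095), Chac1 (0.73 ± 0.066) and Slc7a5 (0.68 ± 0.08).

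Tested directly, the roxadustat effect was larger at day 21 than at day 7 for 24 members and smaller for 7, where 44.7% of all tested genes differed in this way, 20.9% upward and 23.8% downward. Scaled by library size alone, the members' counts were 28 and 4, while those of all tested genes moved to 6504 upward and 2501 downward, against 3919 and 4463 with TMM. The median difference of effects was 0.888 over the members and -0.0205 over all tested genes. Cth changed most, by 3.60 ± 0.174 (adjusted p = 2.2e-14), followed by Cbs with 2.83 ± 0.15 (adjusted p = 4.54e-15). From day 0 to day 7 the effect became larger for 14 members and smaller for 5, where 28.9% of all tested genes differed, 15.5% upward and 13.4% downward, and among the members Gdf15 led upward and Psat1, with -1.12 ± 0.125 (adjusted p = 7.4e-08), downward. The comparisons of roxadustat with control and of times within an arm share libraries, so their values are not independent of each other.

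The lists of related genes outside the module are read here against all tested genes, of which 24.1% were higher and 23.6% lower at day 7 (median 0.0287) and 30% higher and 32.9% lower at day 21 (median 0). Of 14 genes of the eIF2 kinases, eIF2, its exchange factor and phosphatase, 2 rose and 3 fell at day 7 and 5 rose and 5 fell at day 21, with medians of 0.0292 and -0.0273, close to the medians of all tested genes. Eif2ak3, which encodes the endoplasmic reticulum kinase PERK, averaged 106 CPM with roxadustat and 65.3 CPM in control cultures at day 21 (0.70 ± 0.052, adjusted p = 1.86e-12). Impact, which encodes an inhibitor of the amino acid-sensing kinase GCN2, averaged 117 CPM with roxadustat and 333 CPM in control cells (-1.52 ± 0.06, adjusted p = 1.31e-18). Ppp1r15a, the phosphatase subunit GADD34 that reverses eIF2 phosphorylation, was higher at day 7 with 54.6 CPM with roxadustat and 33.9 CPM in control cells (0.69 ± 0.066).

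Among 13 other bZIP partners and stress factors, 4 rose and 4 fell at day 7 and 7 rose and 5 fell at day 21. Atf3, an immediate target of ATF4, averaged 27 CPM with roxadustat and 3.27 CPM in control cultures at day 21 (3.07 ± 0.116, adjusted p = 1.64e-18). Trib1, a relative of Trib3, averaged 61.1 CPM with roxadustat and 13.7 CPM in control cells (2.17 ± 0.111), and Ddit4l, a relative of Ddit4, 64.5 CPM with roxadustat and 22.4 CPM in control cells (1.53 ± 0.079). Of 12 genes of the other arms of the unfolded protein response, 2 rose and 5 fell at day 7, and 2 rose and 4 fell at day 21. Their chaperone Hsp90b1 averaged 471 CPM with roxadustat and 719 CPM in control cultures at day 21 (-0.61 ± 0.072). Herpud1, a gene of protein disposal at the endoplasmic reticulum, was higher, with 124 CPM with roxadustat and 72.3 CPM in control cells (0.78 ± 0.093).

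The cytosolic aminoacyl-tRNA synthetases, many of them known ATF4 targets that charge transfer RNAs, followed the serine enzymes at day 7. Of 20 genes 14 fell in roxadustat cells and 1 rose, with a median of -0.227, against 0.0287 over all tested genes. Tars averaged 164 CPM with roxadustat and 247 CPM in control cells (-0.59 ± 0.06), Nars 395 CPM with roxadustat and 558 CPM in control cells (-0.50 ± 0.054) and Gars 282 CPM with roxadustat and 372 CPM in control cells (-0.40 ± 0.047). Later, 8 rose and 4 fell at day 21, with a median of 0.101, led by Iars with 174 CPM with roxadustat and 100.1 CPM in control cells (0.80 ± 0.08). Between the culture times 17 of the 20 fell and 1 rose in roxadustat cells, where 32.9% of all tested genes were lower and 28.6% higher. In control cells 19 fell, where 34.3% of all tested genes were lower and 34.5% higher. The synthetases summed to 2945 to 3030 CPM in roxadustat libraries at day 21, against 3605 to 3832 CPM at day 7. In control libraries they summed to 2711 to 3033 CPM at day 21, against 4432 to 4498 CPM at day 7.

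The counts for enzymes and transporters of amino acids outside the module stand beside the same shares of all tested genes. Of 13 other serine, glycine and folate enzymes 3 rose and 7 fell at day 7 and 5 rose and 4 fell at day 21; Tyms, the thymidylate synthase of dividing cells, fell at day 7 (-1.18 ± 0.089), and Amt, of the glycine cleavage system, was higher at day 21 by 2.10 ± 0.139. Of 14 other amino acid enzymes 3 rose and 2 fell at day 7 and 6 rose and 3 fell at day 21. Ass1, the argininosuccinate synthase, averaged 15.2 CPM with roxadustat and 115 CPM in control cultures at day 21 (-2.93 ± 0.088), and Bcat1, the cytosolic branched-chain aminotransferase, 262 CPM with roxadustat and 107 CPM in control cells (1.29 ± 0.056). Of 15 other amino acid transporters 4 rose and 5 fell at day 7 and 8 rose and 5 fell at day 21. The taurine transporter Slc6a6 averaged 1005 CPM with roxadustat and 229 CPM in control cells (2.13 ± 0.078), while the cationic transporter Slc7a2 averaged 6.2 CPM with roxadustat and 205 CPM in control cells (-5.05 ± 0.163), opposite to its relatives Slc7a1 and Slc7a3.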

How the data were processed

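The 20 deposited files hold raw counts per gene, which the authors obtained from non-stranded mRNA libraries; the submitters' processing notes name bcl2fastq, STAR 2.5.2a, featureCounts 1.5.0-p1 and mm10. The counting settings and the annotation release are not given in the sources used here. Gene symbols and coordinates came from GENCODE M21 (GRCm38), which matched 47224 of 47729 identifiers. Depth ranged from 8502011 to 19903160 counts, which sets the precision of low genes.

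Counts were tested with edgeR 4.0.16 in R 4.3.3 (filterByExpr, TMM, robust quasi-likelihood F test, 1 model of 6 groups and 20 libraries), with Benjamini-Hochberg adjustment over 18731 genes and a threshold of 0.05. SE was taken from the log2 fold change and its F value (change over root F). Levels are CPM with TMM scaling, and values in parentheses after a mean are SD and n. Alternatives were limma voom (limma 3.58.1), DESeq2 1.42.0, other scalings, filters and thresholds, a replicate block, only the groups compared, leaving out each library, and, chosen after seeing the data, the close control day 21 pairs summed. The code was tested on simulated counts. Per library values were given for the 6 called members with the largest change and at least 5 CPM in the higher group in each comparison of roxadustat with control, the 4 such members in each time comparison, the 6 with the smallest p for each difference of effects, and always Atf4 and Ddit3; up to 3 genes of each pathway list were named by smallest p, and others were added for their role. The members and lists were chosen with earlier results of these data known. The replicate numbers did not pair the libraries. Promoter letters were read from RefSeq windows of 250 bases before to 50 after a start; stretches printed end at most 30 bases inside the gene.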

Additional observations from a re-analysis of the deposited data

Results flagged for a closer look

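A single library stood apart from the other 3 of its group in 12 of the 147 sets of a member and a group of 4 that were looked at, by Dixon's rule on the gap between the outermost library and its neighbour relative to the range of the group. The nominal rate of that rule is about 1 in 20, and the sets share libraries, so they are not independent. In control cells at day 7, Cebpb had 33.32 CPM in replicate 1 and 45.15 to 46.44 CPM in the others, Vldlr 85.48 CPM in replicate 1 and 79.88 to 79.9 CPM in the others, and Aldh1l2 98.29 CPM in replicate 1 and 94.1 to 94.67 CPM in the others. In the same group Slc7a1 had 91.27 CPM in replicate 2, below the others, Trib3 27.37 CPM in replicate 3, above the others, and Atf5 65.22 CPM in replicate 4, below the others. In control cells at day 21, Trib3 had 11.58 CPM and Stc2 4.072 CPM in replicate 3, the one below and the other above the rest, and Aldh18a1 had 123.4 CPM in replicate 2, above the rest. In roxadustat cells, Slc1a4 had 62.81 CPM in replicate 3 of day 7, above the others, and at day 21 Asns had 141.4 CPM in replicate 1 and Slc1a5 16.65 CPM in replicate 2, both below the others. Of the 12 cases 3 lay in control day 7 replicate 1 and 2 in control day 21 replicate 3.

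The roxadustat effect differed between times by a direct test in edgeR. Between day 7 and day 0 it was larger for Gdf15 by 2.787 ± 0.125 on the log2 scale (adjusted p = 1.17e-15), Slc7a11 by 1.921 (adjusted p = 7.72e-08), Vldlr by 1.627 (adjusted p = 9.67e-15), Cbs by 1.598 (adjusted p = 1.38e-11) and Ddit4 by 1.413 (adjusted p = 4e-07). For Psat1 the difference was -1.117 (adjusted p = 7.4e-08). Between day 21 and day 7 the effect was larger for Cth by 3.602 (adjusted p = 2.2e-14), Cbs by 2.826 (adjusted p = 4.54e-15), Stc2 by 2.442 (adjusted p = 3.2e-15), Gdf15 by 2.24 (adjusted p = 2.52e-16), Slc7a11 by 2.026 (adjusted p = 9.29e-17) and Chac1 by 1.809 (adjusted p = 1.52e-14). The day 0 effect compares cells of treated and untreated mice and the later ones compare cultures, so time and route of treatment cannot be told apart in the first of these sets.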

How the results depend on the processing

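Counts of members called higher and lower are given here where they moved by over 1.5 times. At a threshold of 0.01, 1 was higher and 3 lower at day 0 and 4 had a smaller effect at day 21 than at day 7. With a fold of at least 2 added, the counts were 0 and 0 in fresh cells, 7 and 2 on day 7, 13 and 3 on day 21, 1 and 0 for day 21 against day 7 in roxadustat cells, 1 and 15 for the same times in control cells, 4 lower in roxadustat and 5 lower in control cells for day 7 against day 0, 7 and 1 for the difference of the day 7 and day 0 effects, and 14 and 2 for that of day 21 and day 7. DESeq2's size factors gave 1 higher at day 0, limma voom 5 lower at day 0, upper quartile scaling 3 lower for day 21 against day 7 in roxadustat cells, and library size alone 5 lower at day 0, 3 lower for those times in roxadustat cells and 4 smaller effects at day 21. With only the 4 day 0 libraries fitted, edgeR called 0 and 0 (3 and 7 at an unadjusted p under 0.05).

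Without 1 library at a time, the counts higher and lower ranged over 1 to 4 and 4 to 9 in fresh cells, 14 to 16 and 12 to 12 at day 7, 27 to 28 and 7 to 7 at day 21, 25 to 27 and 8 to 9 for day 7 against day 0 in roxadustat cells, 14 to 16 and 6 to 7 for day 21 against day 7 in roxadustat cells, 21 to 22 and 9 to 12, and 8 to 9 and 23 to 25, for the same steps in control cells, 12 to 14 and 4 to 7 for the first difference of effects and 24 to 25 and 6 to 8 for the second.

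Library size alone moved the median of all tested genes to 0.338 at day 21, to 0.461 in roxadustat and 0.398 in control cells for day 7 against day 0, to -0.192 in control cells for day 21 against day 7 and to 0.255 for the second difference of effects. It reversed the sign at day 21 of Eif4ebp1 (0.279) and Pck2 (0.203), in control cells from day 0 to day 7 of Atf4 (0.415), Sesn2 (0.044) and Gdf15 (0.138) and from day 7 to day 21 of Nupr1 (-0.192) and Pck2 (-0.06), and in roxadustat cells from day 0 to day 7 of Cebpb (0.054) and Slc3a2 (0.045). Cebpb in control cells from day 0 to day 7 was reversed without control day 0 replicate 2 (0.008), and its values without 1 library ranged over -0.737 to 0.008. With the replicate numbers as a block, the counts were 2 and 6 for fresh cells, 16 and 12 for day 7 and 27 and 7 for day 21; libraries with the same number did not deviate together (correlations of 0.0692 at day 0, -0.0864 to 0.0778 at day 7 and -0.338 to 0.109 at day 21). The day 0 groups hold 2 libraries each, and genes under a few counts, such as Fgf21, are limited by depth.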
